A study of Mus musculus with 9 samples.

Results

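A set of 10 genes of hepatic glucose output and glycogen storage were examined: the gluconeogenic genes Pcx, Pck1, Fbp1, G6pc and Slc37a4, the glycogen genes Gys2 and Pygl, and the regulators Foxo1, Ppargc1a and Creb3l3. They were chosen by name, for their place in glucose output and glycogen storage, with earlier results of these data known. They make up 10 of the 24421 gene symbols in the count tables. All 10 passed the filter on low counts and were among the 14104 genes tested. Liver RNA was sequenced from C57BL/6J mice at an age of 5 weeks, after 6 h without food. The 4 OGT-deficient livers came from mice in which O-GlcNAc transferase (OGT), the enzyme that attaches N-acetylglucosamine to intracellular proteins, had been deleted, and the 5 WT livers came from their control littermates. Mice of both sexes were used. How OGT was deleted, by which promoter or Cre line, and in which cells is not given in the sources used here, and neither is the sex of a given mouse. Libraries match the stated number of mice per group, and each is treated as 1 mouse.

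Gluconeogenesis makes glucose from lactate, alanine and glycerol and draws on a small set of enzymes that bypass the irreversible steps of glycolysis. Pyruvate carboxylase (Pcx) makes oxaloacetate, cytosolic phosphoenolpyruvate carboxykinase (Pck1) converts it to phosphoenolpyruvate, fructose-1,6-bisphosphatase (Fbp1) makes fructose 6-phosphate, and glucose-6-phosphatase (G6pc) releases free glucose. Slc37a4 carries glucose 6-phosphate into the endoplasmic reticulum, where G6pc works. Liver glycogen is built by glycogen synthase 2 (Gys2) and broken down by the liver phosphorylase (Pygl). In fasting, glucagon acts through cyclic AMP and CREB, and low insulin lets FOXO1 stay in the nucleus. The coactivator PGC-1alpha (Ppargc1a) works with FOXO1 on gluconeogenic promoters, and CREB3L3 (CREBH) is a liver transcription factor released from the endoplasmic reticulum membrane in fasting.

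The promoters of Pck1 and Ppargc1a are classic examples of cyclic AMP control, and that of G6pc of insulin control. They are shown with that of Slc37a4, the gene of the set with the greatest difference between the groups. The 250 bases before the start are given from RefSeq (GRCm38.p6), read 5′ to 3′ on the strand of the gene. Capitals mark the core of a cyclic AMP response element (TGACG or CGTCA), an insulin response motif (CAAAACA or TGTTTTG) and TATAAA.
Pck1, chr2:173152823-173153072, plus strand: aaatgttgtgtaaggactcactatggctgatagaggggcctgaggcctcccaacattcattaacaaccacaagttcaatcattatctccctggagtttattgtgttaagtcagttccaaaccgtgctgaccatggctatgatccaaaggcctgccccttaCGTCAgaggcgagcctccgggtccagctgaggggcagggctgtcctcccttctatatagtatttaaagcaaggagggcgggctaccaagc
G6pc, chr11:101367466-101367715, plus strand: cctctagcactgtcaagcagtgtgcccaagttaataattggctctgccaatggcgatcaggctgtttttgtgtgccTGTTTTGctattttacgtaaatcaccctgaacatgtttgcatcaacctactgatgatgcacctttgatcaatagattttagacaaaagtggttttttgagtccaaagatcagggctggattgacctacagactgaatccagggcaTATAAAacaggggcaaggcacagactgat
Slc37a4, chr9:44396696-44396945, plus strand: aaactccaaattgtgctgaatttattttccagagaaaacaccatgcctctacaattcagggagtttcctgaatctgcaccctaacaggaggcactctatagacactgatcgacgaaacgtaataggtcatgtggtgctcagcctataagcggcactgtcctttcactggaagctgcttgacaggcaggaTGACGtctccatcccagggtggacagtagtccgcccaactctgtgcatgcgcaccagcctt
Ppargc1a, chr5:51567726-51567975, minus strand: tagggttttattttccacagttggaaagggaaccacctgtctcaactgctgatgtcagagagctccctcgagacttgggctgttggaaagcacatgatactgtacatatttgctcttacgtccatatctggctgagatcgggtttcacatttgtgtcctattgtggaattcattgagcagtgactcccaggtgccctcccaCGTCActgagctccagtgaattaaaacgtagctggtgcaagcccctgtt
The cyclic AMP core begins 90 bases before the start in Pck1, 61 in Slc37a4, 49 in Ppargc1a and 44 in Pygl. It was found on either strand in 4 of the 9 genes of the set with a sequence, and in 17.8% of the 32851 promoter windows of the same length. G6pc alone among the 9 held the insulin response motif, 174 bases before the start (5.56% of all windows), and TATAAA, 29 bases before it (12.4%). The full element TGACGTCA (1.55% of all windows), the forkhead motif GTAAACA (3.17%) and the HNF4 motif CAAAGTCCA (0.384%) were found in none of the 9. The cyclic AMP core lies within the full element, and the other motifs share no such overlap. Starts here are those of RefSeq. In the GENCODE annotation, the cores of Slc37a4 and Pygl and the TATAAA of G6pc lie within the gene. The whole Pygl window (chr12:70227684-70227933) lies within its gene. No sequence for Gys2 was used. These matches describe letters in the window and no binding was measured.

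Depth was ample for all members. Between 36323832 and 45102080 counts per OGT-deficient library and between 32337861 and 54130901 per WT library were assigned to genes, and each member had at least 278 counts in every library. Ogt fell to 16.9 ± 2.70 CPM (counts scaled to library size) in OGT-deficient liver, against 61.6 ± 10.4 CPM in WT liver (SD, n = 4 and 5), with a log2 fold change of -1.86 (adjusted p = 3.53e-07, edgeR's quasi-likelihood test), and every library lay on the side its label names. Throughout, library sizes for CPM carry TMM factors (trimmed mean of M-values). The TMM factors were 1.09 to 1.22 in OGT-deficient and 0.880 to 0.915 in WT libraries. Without them the median log2 fold change over all tested genes was 0.36, against 0.02 with them, so a direction that depends on this scaling is given as such. With TMM, 51.8% of the calls were higher in OGT-deficient liver, with upper-quartile factors 62.5%, and with library totals alone 78.5%.

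Markers of several cell types differed between the groups, and in bulk RNA fewer cells of a type and less RNA per cell cannot be told apart. The counts called stand beside 31.6% of all tested genes called higher, 29.4% lower and 61.1% in either direction. No difference from these shares was tested. Albumin (Alb) averaged 33491 ± 3673 CPM in OGT-deficient and 73880 ± 9066 CPM in WT liver. Of 15 tested hepatocyte genes 11 fell and 1 rose, and their summed level was 74864 to 93923 CPM in OGT-deficient and 130293 to 161791 CPM in WT libraries. Periportal markers, of the zone where gluconeogenesis is strongest, summed to 2289 to 2543 CPM in OGT-deficient and 5421 to 6321 CPM in WT libraries, with 6 of 9 lower and 2 higher. Pericentral markers summed to 4133 to 4778 CPM in OGT-deficient and 11592 to 14092 CPM in WT libraries, with 9 of 11 lower. Under library totals 7 of the 15 hepatocyte genes, 5 of the 9 periportal and 8 of the 11 pericentral markers were called lower. All 8 bile duct markers rose, with sums of 151 to 261 CPM in OGT-deficient and 31.8 to 61.0 CPM in WT libraries. Of 8 stellate and myofibroblast markers 7 rose, with sums of 664 to 1088 CPM in OGT-deficient and 88.7 to 296 CPM in WT libraries. Macrophage markers rose in 5 of 8, neutrophil markers in 3 of 3, endothelial markers in 1 of 6 with 2 lower, and lymphocyte markers in 0 of 7 with 1 lower (0 to 3 called without single libraries). Under library totals 8 macrophage, 2 endothelial and 2 lymphocyte markers were higher, and 1 endothelial and 0 lymphocyte markers lower. Only 1 neutrophil marker was called without OGT-deficient liver 1, 2 or 3 or WT liver 3 or 4, and 3 macrophage markers without OGT-deficient liver 2. Of the 5 neutrophil markers listed, Ly6g was not among the gene symbols and Mpo was not tested. S100a8 and S100a9 overlapped between the groups and Lcn2 did not. Of the hepatocyte markers, Ass1 alone was too low to be tested, and 55.3% of the 50-base stretches of its transcript occur in another listed gene. Whether this shift takes part in the differences below was not tested.

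Of the 10 genes, 6 fell in OGT-deficient liver, 1 rose and 3 did not pass the test. By that test (adjusted p under 0.05, edgeR's quasi-likelihood test, Benjamini-Hochberg over the whole table), 29.4% of all tested genes were lower, 31.6% were higher and 61.1% were called in either direction. The share of members called was thus close to that of all genes, and the share called lower was above it. No test of that excess was made, and the members were chosen with earlier results of these data known. On the TMM scale the levels of 5 members did not overlap between the groups, all lower in OGT-deficient liver. Of all tested genes, 25.0% lay lower without overlap, 26.2% higher and 51.3% in either direction. Statements on overlap of levels in CPM, here and below, are for this scale. With library totals in place of TMM, the levels of these 5 members overlapped between the groups. The changes were small: the median log2 fold change of the members was -0.35, none reached 2-fold, and 22.0% of tested genes did. The genes that fell were the glucose 6-phosphate transporter, liver glycogen synthase, Fbp1, Foxo1, Pcx and Pygl, while Ppargc1a rose and Pck1, G6pc and Creb3l3 were not called.

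**Figure D1:**
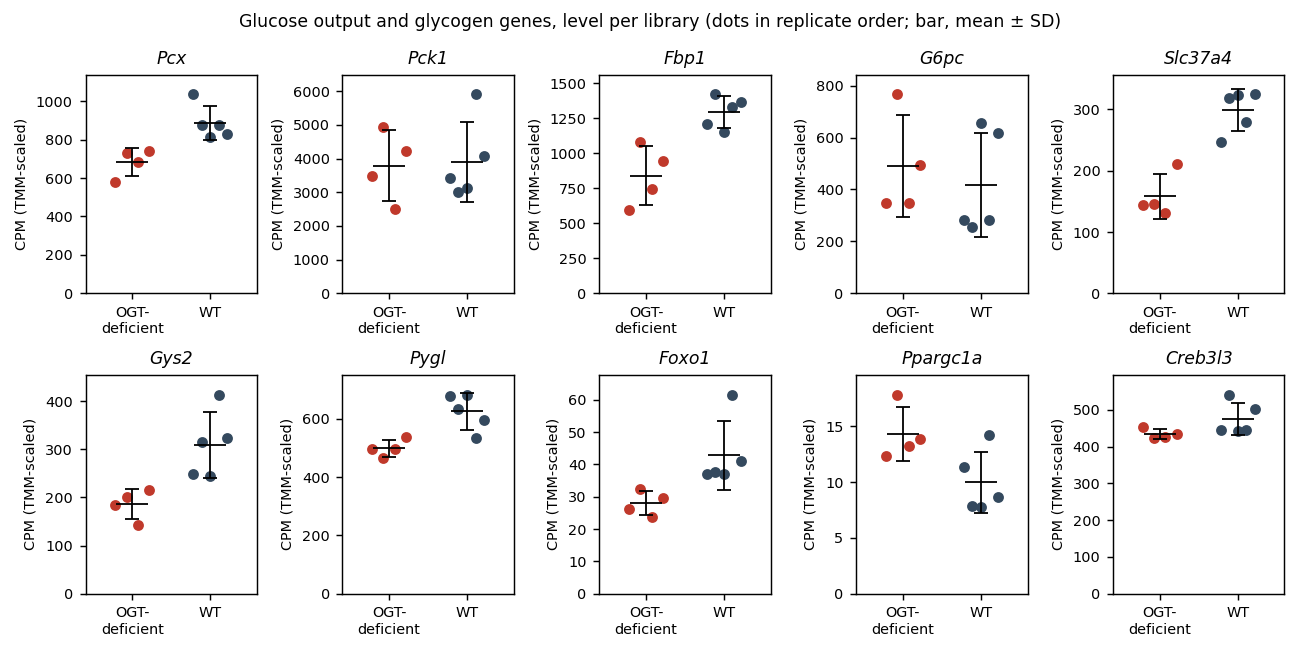
Level of each of the 10 genes in CPM (TMM-scaled, linear axis from 0) in the 4 OGT-deficient libraries (left of each panel) and the 5 WT libraries (right); dots are libraries, bars the mean and SD. Slc37a4 (131.2 to 211.6 CPM in OGT-deficient, 247.0 to 324.3 CPM in WT), Gys2, Fbp1, Pcx and Foxo1 show no overlap on this scale. Pck1 and G6pc spread widely within both groups.

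Pyruvate carboxylase, the mitochondrial entry step, was lower in OGT-deficient liver. Pcx (chr19:4510472-4621752, plus strand, GRCm38) had 580.2, 728.4, 681.0 and 742.7 CPM in OGT-deficient livers 1 to 4, against 1035, 878.3, 815.8, 876.4 and 828.3 CPM in WT livers 1 to 5. Every OGT-deficient library lay below every WT library. The log2 fold change was -0.38 (SE 0.10, 95% interval -0.60 to -0.15, adjusted p = 0.00716, edgeR's quasi-likelihood test). With library totals in place of TMM it was -0.04 and not called (adjusted p = 0.695), so the call depends on the scaling.

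Pck1, the enzyme most often used as a sign of gluconeogenic drive, showed no difference beyond its spread. Pck1 (chr2:173153048-173159273, plus strand) had 3488, 4935, 2493 and 4236 CPM in OGT-deficient livers 1 to 4, against 3414, 2999.9, 3128, 5901 and 4067 CPM in WT livers 1 to 5. The lowest value was in OGT-deficient liver 3, the highest in WT liver 4, and the groups overlapped along most of their range. The log2 fold change was -0.04 (SE 0.22, adjusted p = 0.880, edgeR's quasi-likelihood test), and the 95% interval of -0.53 to 0.44 leaves room for a moderate change either way. The sign itself depended on the scaling, with 0.08 under upper-quartile factors and 0.29 under library totals, neither called.

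Fbp1, the next bypass enzyme, was lower in OGT-deficient liver. Fbp1 (chr13:62864753-62888282, minus strand) had 595.5, 1077, 747.7 and 943.1 CPM in OGT-deficient livers 1 to 4, against 1209, 1419, 1151, 1328 and 1364 CPM in WT livers 1 to 5. OGT-deficient liver 1 was lowest, and the highest OGT-deficient value stayed below the lowest WT value. Its log2 fold change was -0.62 (SE 0.15, 95% interval -0.95 to -0.29, adjusted p = 0.00345, edgeR's quasi-likelihood test). Under library totals it was -0.29 and just missed the threshold (adjusted p = 0.0570).

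Of the pair that carries out the terminal step, the phosphatase did not pass the test and its transporter fell. G6pc (chr11:101367561-101377903, plus strand) had 349.8, 765.9, 349.7 and 494.5 CPM in OGT-deficient livers 1 to 4, against 281.6, 254.0, 654.3, 281.9 and 616.6 CPM in WT livers 1 to 5. In WT, livers 3 and 5 stood high and the other 3 low, and among OGT-deficient livers number 2 stood high, so the groups overlapped. The difference on the log2 scale was 0.23 (SE 0.32, 95% interval -0.47 to 0.93, adjusted p = 0.550, edgeR's quasi-likelihood test) and ranged from -0.08 to 0.45 when single libraries were left out.

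Slc37a4 (chr9:44396852-44402968, plus strand) had 144.3, 145.5, 131.2 and 211.6 CPM in OGT-deficient livers 1 to 4, against 247.0, 318.6, 322.8, 278.7 and 324.3 CPM in WT livers 1 to 5. All OGT-deficient values lay below all WT values, and OGT-deficient liver 4 was closest to WT. Its log2 fold change of -0.92 (SE 0.14, 95% interval -1.22 to -0.61, adjusted p = 0.000113, edgeR's quasi-likelihood test) was the furthest from 0 among the members. It was called under all 18 alternatives and remained at -0.58 (adjusted p = 0.00150) under library totals.

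Both glycogen genes, the synthase and the phosphorylase, fell in OGT-deficient liver. Gys2 (chr6:142422613-142473109, minus strand) had 184.7, 201.8, 142.6 and 214.6 CPM in OGT-deficient livers 1 to 4, against 248.2, 314.2, 244.3, 413.2 and 324.1 CPM in WT livers 1 to 5. The groups did not overlap, and WT liver 4 was the highest. Gys2 had a log2 fold change of -0.73 (SE 0.16, 95% interval -1.08 to -0.38, adjusted p = 0.00174, edgeR's quasi-likelihood test), and Gys2 too was called lower under all 18 alternatives, library totals included (-0.39, adjusted p = 0.0342).

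Pygl (chr12:70190811-70231488, minus strand) had 496.0, 466.0, 495.7 and 538.6 CPM in OGT-deficient livers 1 to 4, against 680.1, 635.0, 683.1, 533.1 and 596.5 CPM in WT livers 1 to 5. The groups overlapped by a small margin, OGT-deficient liver 4 above WT liver 4. For Pygl the log2 fold change was -0.33 (SE 0.09, 95% interval -0.53 to -0.12, adjusted p = 0.00929, edgeR's quasi-likelihood test). The call was lost with upper-quartile factors (-0.20, adjusted p = 0.0836), and under library totals the value was 0.01 (adjusted p = 0.911). Within a library the log2 ratio of Gys2 to Pygl was -1.44 ± 0.25 in OGT-deficient and -1.04 ± 0.46 in WT liver (SD, n = 4 and 5), and the difference of -0.40 did not pass a two-sided exact permutation test (p = 0.159, adjusted 0.254 over 8 pairs).

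The 3 regulators went different ways. Foxo1 (chr3:52268336-52353221, plus strand), which insulin signalling keeps out of the nucleus, had 26.3, 32.4, 23.8 and 29.5 CPM in OGT-deficient livers 1 to 4, against 37.0, 37.7, 36.9, 61.6 and 41.0 CPM in WT livers 1 to 5. The groups did not overlap, and WT liver 4 stood apart from the other 4 WT livers. The log2 fold change was -0.61 (SE 0.15, 95% interval -0.95 to -0.28, adjusted p = 0.00413, edgeR's quasi-likelihood test). It was -0.45 without WT liver 4 and still called, and -0.28 under library totals and not called (adjusted p = 0.111).

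Ppargc1a (chr5:51454250-51567726, minus strand) was the member that rose. It had 12.3, 17.8, 13.2 and 13.9 CPM in OGT-deficient livers 1 to 4, against 11.3, 7.90, 7.80, 14.2 and 8.64 CPM in WT livers 1 to 5. WT liver 4 lay within the OGT-deficient range and the other 4 WT livers below it. Ppargc1a had a log2 fold change of 0.52 (SE 0.18, 95% interval 0.13 to 0.91, adjusted p = 0.0229, edgeR's quasi-likelihood test). The call was lost without OGT-deficient liver 2 (0.39, adjusted p = 0.0961), WT liver 2 (0.45, adjusted p = 0.0572), WT liver 3 (0.45, adjusted p = 0.0540) or WT liver 5 (0.48, adjusted p = 0.0517). Its direction was the same in all 18 alternatives.

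Creb3l3 (chr10:81084324-81098874, minus strand) was the steadiest member. It had 453.3, 422.4, 427.4 and 435.5 CPM in OGT-deficient livers 1 to 4, against 445.7, 541.5, 443.9, 444.6 and 501.4 CPM in WT livers 1 to 5. The groups overlapped at OGT-deficient liver 1. The log2 fold change of -0.13 (SE 0.09, 95% interval -0.32 to 0.06, adjusted p = 0.210, edgeR's quasi-likelihood test) did not pass the threshold, and under library totals it was 0.21 and called higher (adjusted p = 0.0457).

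**Figure D2:**
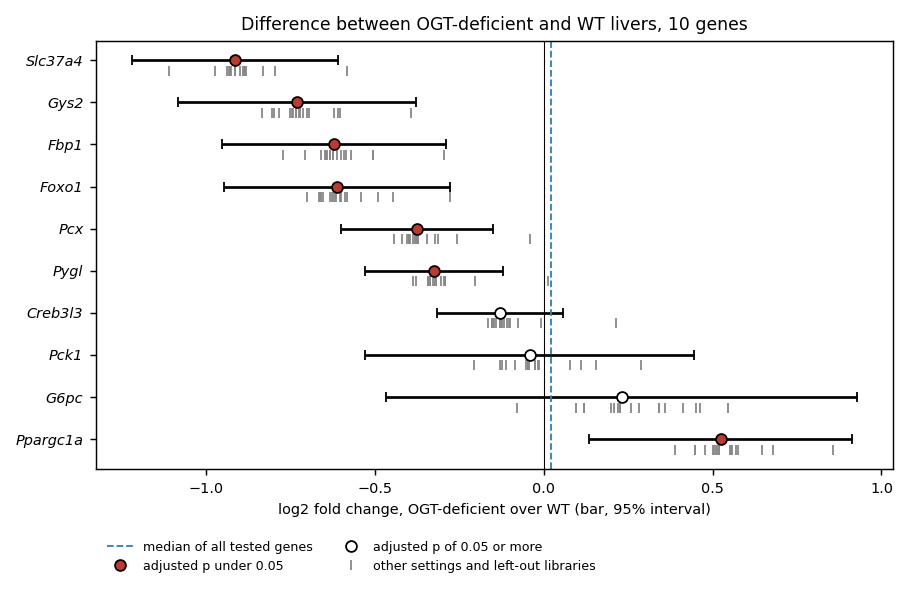
Log2 fold change of OGT-deficient over WT liver for the 10 genes, with 95% intervals (points filled where the adjusted p is under 0.05), and grey ticks for the alternatives and left-out libraries. Slc37a4 (-0.92) and Gys2 (-0.73) stay below 0 in every setting drawn, and the ticks of Pygl, Creb3l3, Pck1 and G6pc lie on both sides of 0; the dashed line is the median of all tested genes (0.02).

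The directions of 7 members were the same under TMM, DESeq2 size factors, upper-quartile factors and library totals. Slc37a4, Gys2, Fbp1, Foxo1 and Pcx were lower and G6pc and Ppargc1a higher in OGT-deficient liver in each, whereas Pck1, Creb3l3 and Pygl changed sign. These are signs of the values: G6pc was not called under any of these scalings, and Fbp1, Foxo1 and Pcx were not called under library totals. A change of size factors moves all genes by about the same amount. Taking off the median of all genes does so too, and cannot tell which scaling is right. With the median of all genes (0.36) taken off, the values under library totals were -0.94 for Slc37a4, -0.76 for Gys2, -0.66 for Fbp1, -0.64 for Foxo1, -0.40 for Pcx and -0.35 for Pygl, and they were -0.15 for Creb3l3, -0.07 for Pck1, 0.19 for G6pc and 0.50 for Ppargc1a.

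Levels per summed exon length of a gene were put on a scale with the same sum in each library (TPM). Pck1 and Fbp1 led in both groups and Foxo1 and Ppargc1a came last. In OGT-deficient liver the mean levels were 3341 ± 815 TPM for Pck1, 1491 ± 308 TPM for Fbp1 and 612 ± 224 TPM for G6pc, followed by Creb3l3 (439.8 ± 37.1 TPM), whose range overlapped with that of G6pc, and Pcx (436 ± 24.9 TPM), whose range overlapped with that of Creb3l3. Pygl, Gys2 and Slc37a4 came next, below the range of Pcx, at 220.5 ± 15.1, 212 ± 29.8 and 168 ± 30.5 TPM, each overlapping with its neighbour, and Foxo1 (9.80 ± 1.003 TPM) and Ppargc1a (6.59 ± 0.93 TPM) stood apart at the low end (SD, n = 4). In WT liver the levels were 2659 ± 789 TPM for Pck1 and 1777 ± 111 TPM for Fbp1, then 437.5 ± 56.6 TPM for Pcx, 405 ± 194 TPM for G6pc and 368 ± 26.5 TPM for Creb3l3. Gys2, Slc37a4 and Pygl followed at 271 ± 55.5, 244 ± 23.7 and 213 ± 26.4 TPM, and Foxo1 (11.5 ± 2.73 TPM) and Ppargc1a (3.55 ± 1.003 TPM) were again the lowest (SD, n = 5). From Pcx to Pygl the ranges of neighbours in the WT order overlapped. TPM carry no TMM scaling, so they order genes within a group and are not compared between groups. The summed exons of a gene can be longer than its main transcript, which lowers its TPM. The order thus depends on the length used, such as 6895 bases for Pygl, 4753 for Pcx and 2657 for Gys2.

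The members varied within the groups too, and several did so together. After the group mean of log2 CPM was taken off, Pck1 and Foxo1 correlated at r = 0.935 across the 9 libraries (0.983 within the 4 OGT-deficient and 0.959 within the 5 WT libraries). Gys2 followed Foxo1 (r = 0.865) and Pck1 (r = 0.856), and Ppargc1a followed Foxo1 (r = 0.790) and Pck1 (r = 0.751). Pygl ran against Foxo1 (r = -0.772), Gys2 (r = -0.655) and Pck1 (r = -0.634) over the 9 libraries. Within the 4 OGT-deficient libraries these were -0.189, 0.222 and -0.122, and within the 5 WT libraries -0.926, -0.980 and -0.908. Among WT livers, number 4 was the highest in Pck1, Foxo1, Gys2 and Ppargc1a and the lowest in Pygl. Among OGT-deficient livers, number 3 was the lowest in Pck1, Foxo1 and Gys2. The points share library, depth and scaling, and 9 libraries are few.

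WT liver 4 also had the fewest assigned counts (32337861) and the most alignments to several places per assigned count (1.02, against 0.205 to 0.224 in OGT-deficient and 0.314 to 0.955 in the other WT libraries, with WT liver 5 at 0.955). The part of these library measures in the high values of WT liver 4 was not tested. Every WT library had more such alignments per assigned count than any OGT-deficient library. This cannot be told apart from the difference between the groups, and its part in the comparisons was not tested. G6pc did not share the pattern of Pck1 (r = 0.240): the 2 ran together among OGT-deficient livers (r = 0.856, n = 4) and not among WT livers (r = -0.149, n = 5). The pooled spread within groups was 0.62 on the log2 scale for G6pc and 0.41 for Pck1, at the 92.9th and 82.3rd percentile of all tested genes, and 0.10 for Creb3l3, at the 12.2nd.

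**Figure D3:**
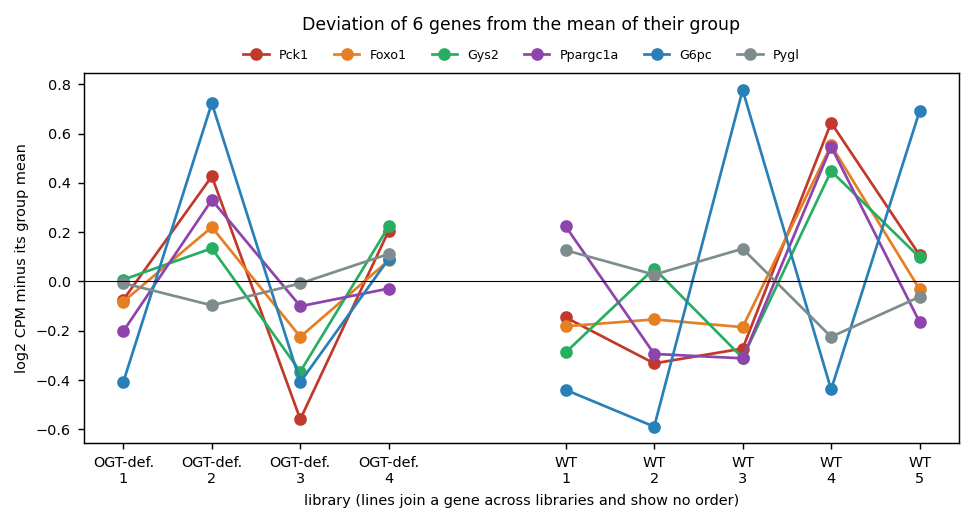
Deviation of log2 CPM from its group mean for Pck1, Foxo1, Gys2, Ppargc1a, G6pc and Pygl in the 4 OGT-deficient (left) and 5 WT libraries (right); lines join the points of a gene and carry no order. Pck1, Foxo1, Gys2 and Ppargc1a peak together in WT liver 4, where Pygl is at its lowest, and G6pc peaks in OGT-deficient liver 2 and WT livers 3 and 5.

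Genes most like a member in this deviation were drawn from 9506 genes with a mean of at least 5 CPM, leaving out predicted or unnamed gene models. For Pck1 these were the amino acid transporter Slc38a4 (r = 0.985), Ranbp2 (0.964), Mcmbp (0.962), Wasl (0.960) and Sec24a (0.959). For G6pc they were Mapk1ip1l (0.943), Angel1 (0.924), Dcun1d3 (0.916), Dbt (0.897), which encodes a subunit of the branched-chain keto acid dehydrogenase, and Zbtb21 (0.889). For Gys2 they were Abca6 (0.969), Eif4g2 (0.962), the clock gene Per1 (0.956), Esyt2 (0.953) and Eif3f (0.953). For Pygl they were Hamp2 (0.965), Zbtb17 (0.939), Zfp414 (0.935), Sept4 (0.933) and the lysosomal enzyme Naglu (0.929). Each is the top of many comparisons over 9 libraries and is given as a description.

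Of 32 other genes of gluconeogenesis and substrate entry 30 were tested, and 7 rose, 12 fell and 11 did not pass, with a median log2 fold change of -0.09. Among all tested genes 31.6% were higher, 29.4% lower and 61.1% called in either direction, with a median of 0.02, and the counts of this list and of those that follow stand beside these shares with no test of a difference. Under library totals 16 were called higher and 6 lower, with a median of 0.24, against 0.36 for all genes. The cytosolic malate dehydrogenase Mdh1, which returns oxaloacetate carbon to the cytosol, fell to 98.4 ± 8.46 CPM in OGT-deficient liver, against 519 ± 48.4 CPM in WT liver (log2 fold change -2.40, adjusted p = 4.55e-09, edgeR's quasi-likelihood test). The cytosolic alanine aminotransferase Gpt, which makes pyruvate from alanine, averaged 143 ± 4.07 CPM in OGT-deficient and 454 ± 23.9 CPM in WT liver (-1.67, adjusted p = 8.66e-09). Phosphoglycerate kinase (Pgk1) fell by 0.67 on the log2 scale. Glucose phosphate isomerase (Gpi1) rose to 553 ± 95.7 CPM in OGT-deficient liver, against 270.5 ± 25.8 CPM in WT liver (1.03), and the lactate dehydrogenase subunit Ldhb rose by 1.42 on the log2 scale at a low level, 7.45 ± 1.33 CPM in OGT-deficient and 2.77 ± 0.494 CPM in WT liver. The second isozymes of 2 members did not pass: Pck2, the mitochondrial carboxykinase, had a log2 fold change of 0.16 (adjusted p = 0.295) and G6pc3 of 0.02 (adjusted p = 0.892). Among genes chosen after their values were seen, cytosolic aspartate aminotransferase (Got1), the partner of Mdh1 in the malate-aspartate shuttle, fell by 1.07 on the log2 scale, without overlap between the groups.

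Of 28 other glycogen genes 27 were tested, and 12 rose, 6 fell and 9 did not pass, with a median of 0.14 and summed levels of 2197 to 2273 CPM in OGT-deficient and 1842 to 1983 CPM in WT libraries. Under library totals 15 were called higher and 3 lower. The branching enzyme Gbe1 averaged 198 ± 25.4 CPM in OGT-deficient and 102 ± 11.5 CPM in WT liver (log2 fold change 0.95). Brain phosphorylase Pygb rose to 70.0 ± 9.02 CPM in OGT-deficient liver, against 8.95 ± 2.86 CPM in WT liver (2.96, adjusted p = 1.09e-07, edgeR's quasi-likelihood test). The phosphatase targeting subunit Ppp1r3g rose to 23.6 ± 14.2 CPM in OGT-deficient liver, against 1.89 ± 0.461 CPM in WT liver (3.66, adjusted p = 9.42e-06). Phkg2, the catalytic subunit of liver phosphorylase kinase, fell to 2.07 ± 0.254 CPM in OGT-deficient liver, against 11.9 ± 0.509 CPM in WT liver (-2.52); other genes cover 21.9% of its exonic bases, so its counts are uncertain. Muscle glycogen synthase Gys1 averaged 2.46 ± 0.504 CPM in OGT-deficient and 2.46 ± 0.381 CPM in WT liver. Chosen after their values were seen, Ugp2, which makes UDP-glucose, rose by 0.64 and Ppp1r3b, the main liver targeting subunit, fell by 0.88 on the log2 scale.

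Of 42 genes of hormone and transcription control 23 fell, 7 rose and 12 did not pass, with a median log2 fold change of -0.37. Under library totals 15 were called lower and 13 higher, with a median of -0.03, against 0.36 for all genes. The glucagon receptor Gcgr averaged 127 ± 14.0 CPM in OGT-deficient and 317 ± 30.8 CPM in WT liver (log2 fold change -1.32, adjusted p = 4.94e-07, edgeR's quasi-likelihood test). The forkhead factor Foxo4 fell by 1.46 and the nuclear receptor Esrra, a partner of PGC-1alpha, by 1.07 on the log2 scale. Hcfc1, a chromatin-associated cofactor known to be cleaved by OGT and to act with it on PGC-1alpha, rose to 171 ± 22.1 CPM in OGT-deficient liver, against 67.1 ± 8.22 CPM in WT liver (1.35). The cyclic AMP responsive receptor Nr4a1 averaged 17.1 ± 8.12 CPM in OGT-deficient and 1.41 ± 0.448 CPM in WT liver (3.57). The insulin receptor Insr (-0.48), the CREB coactivator Crtc2 (-0.85) and the fasting regulator Ppara (-0.83) were also lower, and were chosen after their values were seen. The call of Insr was lost under library totals (-0.14, adjusted p = 0.214).

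Known targets of the 3 regulators were read beside them. The target lists hold none of the members, so Pck1 and G6pc, which were not called, are not counted. Of 10 FOXO1 targets 4 fell, 2 rose and 4 did not pass (median -0.16), and under library totals 1 was called lower and 4 higher: Sesn3 was lower (log2 fold change -0.81), and the pyruvate dehydrogenase kinase Pdk4 averaged 9.97 ± 2.59 CPM in OGT-deficient and 2.96 ± 0.816 CPM in WT liver (1.75). Igfbp1, the secreted protein most closely tied to FOXO1, averaged 91.9 ± 40.9 CPM in OGT-deficient and 81.2 ± 32.7 CPM in WT liver (0.18, adjusted p = 0.611, edgeR's quasi-likelihood test), and was chosen after its values were seen. Of 10 PGC-1alpha targets 4 fell, 1 rose and 5 did not pass (median -0.20; 2 lower and 2 higher under library totals), while Ppargc1a was called higher: Esrra is among those that fell, as is the mitochondrial deacetylase Sirt3 (-0.77), and the carrier Ucp2 rose by 0.76.

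Of 10 CREB3L3 targets 3 rose, 1 fell and 6 did not pass (median 0.04; 6 higher and 1 lower under library totals), while Creb3l3 itself was not called. The fasting hormone Fgf21 averaged 16.7 ± 3.31 CPM in OGT-deficient and 1.09 ± 0.603 CPM in WT liver (log2 fold change 3.91). Apoa4, an apolipoprotein, averaged 2213 ± 987 CPM in OGT-deficient and 213 ± 18.3 CPM in WT liver (3.37). The lipid droplet protein Cidec averaged 41.8 ± 16.6 CPM in OGT-deficient and 3.38 ± 0.770 CPM in WT liver (3.64). Crp fell by 0.70 on the log2 scale. Among the targets that did not pass, Apoc2 had 79.5% of its exonic bases covered by another gene. Of the 50-base stretches of its transcript 88.2% occur in another listed gene, so its counts are uncertain. Other stimuli move these targets too, and the protein or nuclear activity of the 3 regulators was not measured.

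Of 26 genes of glucose use and glycolysis 11 fell, 7 rose and 8 did not pass, with a median of -0.13. Under library totals 10 were called lower and 10 higher. Liver pyruvate kinase Pklr, which runs against gluconeogenesis, averaged 130.2 ± 22.0 CPM in OGT-deficient and 541 ± 162 CPM in WT liver (log2 fold change -2.05), with 22.0% of its exonic bases covered by other genes. The kinases of pyruvate dehydrogenase split, with Pdk1 lower (-1.34) and Pdk3 (2.87) and Pdk4 higher. Muscle phosphofructokinase Pfkm fell by 1.13 on the log2 scale.

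**Figure D4:**
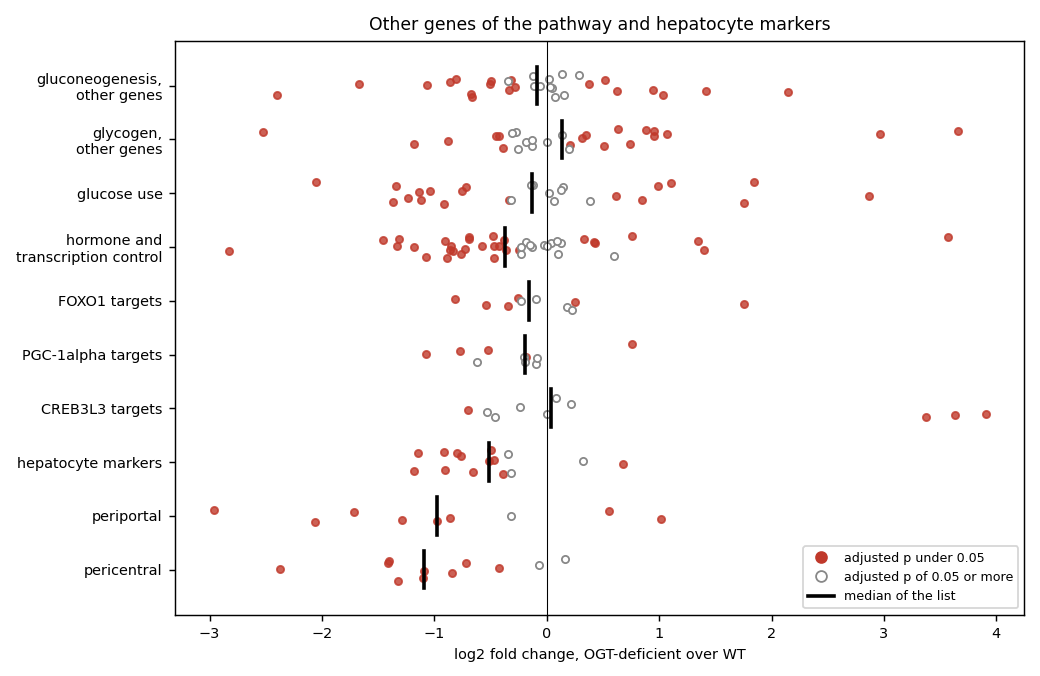
Log2 fold change of OGT-deficient over WT liver for each tested gene of 7 lists of related genes and 3 lists of hepatocyte markers; filled points have an adjusted p under 0.05 and the black bar is the median of the list. Medians are 0.14 for glycogen genes, -0.09 for gluconeogenesis, -0.37 for hormone and transcription control, and -0.52, -0.98 and -1.09 for general, periportal and pericentral hepatocyte markers.

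Ratios of paired genes within a library do not depend on the scaling and ask whether a liver isozyme moved against its partner. Of 8 pairs tested 7 are given here, and 3 differed between the groups without overlap, each at the smallest p that a two-sided exact permutation test of 4 against 5 libraries allows (p = 0.0159, adjusted 0.0423 over the 8 pairs). The log2 ratio of Pygb to Pygl was -2.84 ± 0.25 in OGT-deficient and -6.16 ± 0.33 in WT liver, a difference of 3.32. That of Pkm, the pyruvate kinase of most other tissues, to Pklr was -1.18 ± 0.42 in OGT-deficient and -4.20 ± 0.40 in WT liver, a difference of 3.02. That of Gpt2 to Gpt was 1.63 ± 0.19 in OGT-deficient and 0.28 ± 0.20 in WT liver, a difference of 1.35. Gpt2 itself had a log2 fold change of -0.32 (adjusted p = 0.0297, edgeR's quasi-likelihood test), which lost its call under upper-quartile factors, under library totals and without any of 5 libraries.

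The other 4 of the 7, Gys2 to Pygl among them, did not pass the adjusted test. The log2 ratio of Gys1 to Gys2 was -6.19 ± 0.37 in OGT-deficient and -6.90 ± 0.37 in WT liver with overlap, a difference of 0.71 (exact permutation p = 0.0476, adjusted 0.0952). Pck2 to Pck1 differed by 0.20 (exact permutation p = 0.571) and G6pc3 to G6pc by -0.26 (p = 0.476), both adjusted to 0.587. Pygb and Pkm are expressed in cells other than hepatocytes, whose bile duct and stellate markers were also higher in these libraries. Their part in the ratios was not tested.

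**Figure D5:**
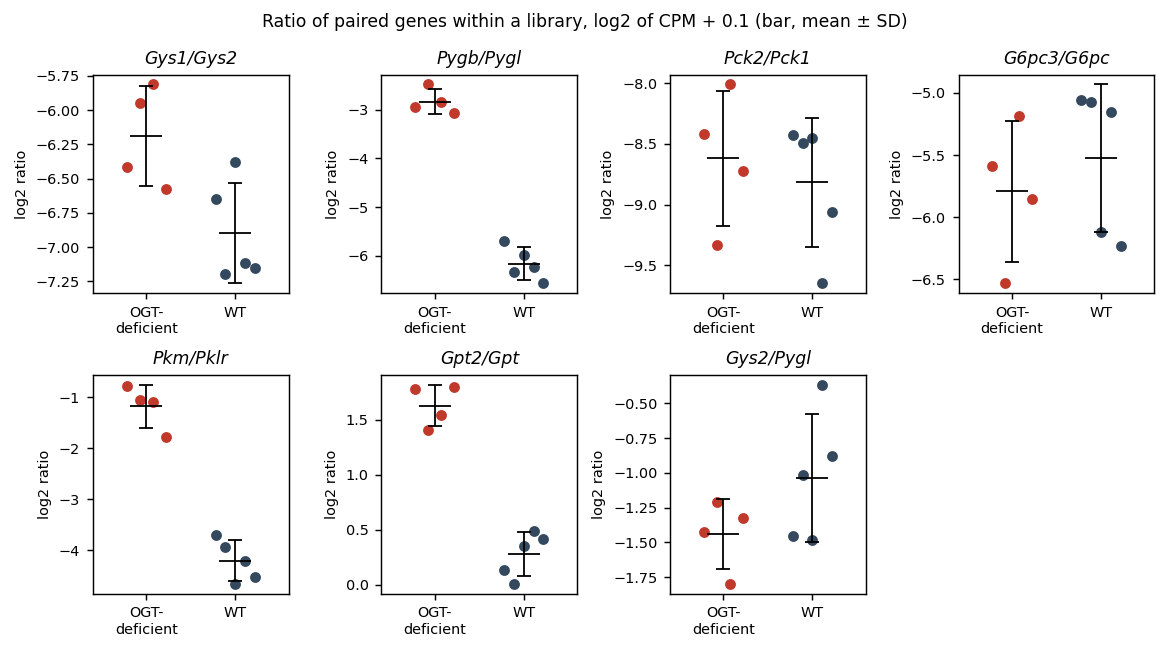
Log2 ratio of CPM + 0.1 within a library for 7 pairs in the 4 OGT-deficient (left of each panel) and 5 WT libraries (right); dots are libraries, bars the mean and SD. Pygb/Pygl, Pkm/Pklr and Gpt2/Gpt lie higher in every OGT-deficient library than in any WT library, by 3.32, 3.02 and 1.35 on average.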

How the data were processed

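Whole-liver RNA of 4 OGT-deficient and 5 WT mice was sequenced, and each library is treated as 1 mouse. The submitters' processing notes name TopHat2 2.1.0, HTSeq 0.9.1 and the build mm10 (GRCm38). The authors deposited whole-number read counts for 24421 gene symbols per library, without normalization, followed by 5 summary lines that were left out. Of uniquely aligned reads, 8.95 to 10.7% lay in no gene and 1.78 to 2.17% over several genes. Annotation release, strand use and library kit: not given in the sources used here. Reads of antisense partners therefore cannot be told apart. No member shares exonic bases with another listed gene.

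Symbols were matched to GENCODE M21 (GRCm38), 23384 directly and 657 by synonym. The gene test was edgeR 4.0.16 (R 4.3.3): filterByExpr, TMM, then glmQLFit and glmQLFTest with group as the only term, p-values adjusted by Benjamini-Hochberg across 14104 genes, threshold 0.05. A prior count of 2 enters log2 values, and 3 counts correspond to 0.0554 to 0.0928 CPM. TPM used summed exon lengths. Ratios used log2 of CPM + 0.1 with exact permutation tests in scipy 1.17.1. The test code was tested on simulated data. Alternatives were other size factors, filters, DESeq2 1.42.0, limma 3.58.1 voom, a replicate block, the 30 most abundant genes left out, single libraries left out and, added after seeing the data, library totals without TMM.

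The members and lists were chosen with earlier results of these data known. Named genes were all members, up to 5 tested genes of the smallest p in each list, called genes whose direction at most 3 of their list share, both genes of each pair and the 5 genes most like Pck1, G6pc, Gys2 and Pygl. Some genes sit in several lists. Several named genes and 1 pair are left out of the text. Promoter windows were the 250 bases before RefSeq starts, taken at the start nearest the GENCODE 5′ end.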

Additional observations from a re-analysis of the deposited data

Results flagged for a closer look

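In 10 of 256 groups of 4 or 5 libraries checked (3.91%), 1 library lay far from the others of its group, where chance gives about 5%. Among the members this was Foxo1, with 61.6 CPM in WT liver 4 against 36.9 to 41.0 CPM in the other WT livers. Among OGT-deficient livers, Sesn3 had 10.2 CPM in liver 1 (7.71 to 7.99 in the others), Pfkm 17.0 CPM in liver 3 (13.4 to 13.8), Kdr 30.2 CPM in liver 4 (66.3 to 77.0) and S100a9 0.930 CPM in liver 4 (2.90 to 3.25). Among WT livers, Epcam had 2.03 CPM in liver 1 (1.19 to 1.39 in the others), Marco 20.2 CPM in liver 1 (8.17 to 10.1), Pklr 827 CPM in liver 3 (446 to 514), Got1 439 CPM in liver 4 (347 to 370.3) and Cd3e 0.179 CPM in liver 5 (0.385 to 0.462).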

How the results depend on the processing

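Slc37a4 and Gys2 were called lower under all 18 alternatives, and Fbp1, Pcx and Foxo1 under 17. With library totals in place of TMM, chosen after seeing the data, 7372 genes were called higher and 2014 lower. Then 2 members were called higher (Ppargc1a and Creb3l3, at 0.21) and 2 lower. The log2 fold change there was -0.29 for Fbp1, -0.042 for Pcx, -0.28 for Foxo1, 0.013 for Pygl and 0.29 for Pck1, and 7 CREB3L3 targets were called, against 4. Also there, values turned to 0.047 for Abca6, 0.24 for Eif4g2, 0.019 for Gpt2, 0.029 for Kdr, 0.078 for Mttp, 0.10 for Per1, 0.15 for Tfam and 0.070 for Wasl. With upper-quartile factors they were 0.078 for Pck1, -0.20 for Pygl and 0.028 for Eif4g2. The cause was not tested. Genes near 0 changed sign: Gys1 was -0.0022 with DESeq2 size factors, -0.0097 without the filter, -0.00091 in DESeq2 and -0.019 without the 30 most abundant genes. Eif3f was -0.0081 without the filter and -0.016 without those 30. Zbtb17 was -0.011, -2.3e-05 and -0.017 without the filter, in DESeq2 and without those 30. Pck1 is among the 30 and has no value there.

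Same-numbered samples did not vary together (r of -0.103 to 0.104 over genes), which cannot settle whether the numbers pair them. The labels give no pairing. Only replicate 4 correlated best with its own number. With the replicate block 4109 genes were higher and 3760 lower, 0 members were called higher (Ppargc1a 0.50, adjusted p = 0.0546), and Gys1 was -0.045 and Zbtb17 -0.022.

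Without single libraries, 0 to 1 members were called higher. Log2 fold changes ranged from -0.21 to 0.15 for Pck1, -0.079 to 0.45 for G6pc, 0.39 to 0.68 for Ppargc1a, -0.015 to 0.14 for Dcun1d3, -0.052 to 0.050 for Eif3f, -0.051 to 0.069 for G6pc3, -0.15 to 0.062 for Gys1, -0.20 to 0.45 for Igfbp1, -0.39 to 0.11 for Per1 and -0.064 to 0.060 for Zbtb17. Ratio differences ranged from 3.21 to 3.44 for Pygb to Pygl, 2.89 to 3.22 for Pkm to Pklr and 1.28 to 1.42 for Gpt2 to Gpt, at adjusted p-values of 0.0571 to 0.0952, since the smallest p of a test on 8 libraries is larger. The range was -0.011 to 0.43 for Pck2 to Pck1. Depth limits no member, each with at least 278 counts per library.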
